A study of Mus musculus with 6 samples.

Results

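The cells described here are the 185 cells that the deposited annotation calls Mast Ba2, its name for mast cells and basophils, among 61839 annotated cells of the developing mouse lung. They were taken by that annotation alone, and they made up 0.2992% of all cells (exact 95% binomial interval 0.2577 to 0.3454%, which covers counting error only). The lungs came from 36 C57BL/6 mice at postnatal day 3, 7 or 14 (P3, P7, P14). Mice had been kept from birth in room air with 21% O2 (normoxia) or in 85% O2 (hyperoxia), a rodent model of bronchopulmonary dysplasia (BPD), the chronic lung disease of preterm infants. Each of the 6 groups of age and oxygen held 6 mice and the labels name no genetic change. The lungs were perfused free of blood and digested with collagenase, protease and DNase, and the cells of each mouse were tagged with a barcode (MULTI-seq) before mice were pooled for droplet sequencing in 6 libraries. The labels do not give the sex of the mice, and P14 mice shared no library with P3 or P7 mice, so that age and pool cannot be told apart where P14 is compared with a younger age. Some P3 and P7 mice shared a pool, while others of each of these ages lay in a pool of that age alone. The paper states that the sexes were unequally represented at P3 and P7 and equally at P14. The part of sex in differences between ages was not tested.

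Mast cells and basophils are rare granulocytes that carry the high-affinity receptor for IgE. When the receptor is cross-linked they empty granules of histamine and proteases and release lipid mediators, and over the following hours they secrete cytokines and chemokines. Basophils mature in the bone marrow, depend on interleukin 3 and carry the protease Mcpt8, whereas connective tissue mast cells mature in the tissue, depend on the receptor Kit and store tryptases and chymases. In the lung around birth, basophils are known to settle and to take on a tissue programme that is driven by interleukin 33 and the growth factor Csf2.

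Every library contributed cells, from 18 in a P14 library to 55 in the P7 library. Of the 36 mice, 33 had at least 1 Mast Ba2 cell, and 24 had the 3 or more cells needed for the tests of genes. A cell held from 1005 to 12931 unique molecular identifiers (UMIs, each 1 captured RNA molecule), with a median of 3565, and a median of 1236 genes and 3.41% mitochondrial UMIs. Median UMIs per cell ran from 2552 in P3 normoxia to 4246 in P7 hyperoxia. Over the 36 mice, all cells together gave 1040712 to 19578324 UMIs per mouse. Cell barcode sequences that occurred in more than 1 library belonged to 792 cells, 4 of them Mast Ba2 cells. Levels are CPM, which relate the UMIs of 1 gene to 1000000 UMIs of the same summed cells. The chemistry counts RNA ends, so CPM do not depend on gene length.

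RNA of alveolar cells was found in most Mast Ba2 cells and in most lymphoid cells. The surfactant gene Sftpc, made by alveolar type 2 cells, gave a UMI at P3, P7 and P14 in 92.6%, 97.8% and 86.8% of the cells described here. In lymphoid cells, which do not make it, the shares were 91.9%, 97.0% and 86.0%, at median depths of 3185, 4030 and 2229 UMIs against 2867, 4006 and 3011 in the Mast Ba2 cells. The red cell gene Hbb-bs had a UMI in 1.85%, 55.9% and 2.63% of Mast Ba2 cells and in 6.56%, 54.8% and 3.84% of lymphoid cells. In Mast Ba2 cells its high P7 levels lay in the pool that held only P7 mice, as given below. Values of such genes were read as background.

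The cells carried the genes of basophils and almost none of those that define mast cells. Because the annotation was built by clustering cells on their expression, this identity is a description with no test. Mcpt8 reached 3354 CPM with a UMI in 82.7% of the cells, against 0.7962 CPM in the next highest of the 34 annotated types, Neut 2. Ms4a2, the beta chain of the IgE receptor, reached 504.3 CPM in 78.4% of cells, and Fcer1a, its IgE-binding alpha chain, reached 194.8 CPM in 41.1%. Cpa3, a granule carboxypeptidase shared by mast cells and basophils, reached 518.6 CPM in 57.3% of cells and was next highest in Neut 1 cells at 17.24 CPM. Il18rap, a chain of the interleukin 18 receptor, was the least exclusive of the 5 listed markers, with 482.8 CPM in 75.7% of cells against 269.3 CPM in NK cells. A UMI of at least 3 of these 5 markers was found in 155 Mast Ba2 cells (83.8%) and in 1 cell of any other type, 25 cells had all 5, and 2 cells had none.

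Of the 15 basophil genes in the marker list, 14 were detected in at least 10% of the cells, the exception being the eotaxin receptor Ccr3 with 5 UMIs. Of the 14 measured mast cell genes, 8 had no UMI at all among 698021 UMIs. These were the tryptases Tpsb2, Tpsab1 and Tpsg1, the chymases Mcpt1, Mcpt2 and Mcpt4, and the receptors Mrgprb1 and Mrgprb2. A count of 0 here allows a level of up to 4.3 CPM. Kit had 2 UMIs, and the chymase Cma1 had 41 UMIs that all lay in 2 cells. Of these 41, 40 lay in the only cell of P7 hyperoxia mouse 3, which also held 179 of the 357 UMIs of granzyme B. Slc18a2, the vesicular transporter that loads amines such as histamine into granules, was the mast cell gene found in more than 10% of cells, at 376.8 CPM in 52.4%. No Mast Ba2 cell had a UMI of 3 or more of 6 mast cell genes, which allows up to 1.62% of cells with such UMIs and sets no limit on cells that express the genes. These 6 were Tpsb2, Tpsab1, Cma1, Mcpt4, Mrgprb1 and Mrgprb2. For the basophil genes Mcpt8, Cyp11a1, Ms4a2, Fcer1a, Prss34 and Cd200r3 the same count was 176 of 185 cells. Most defining mast cell genes were thus not detected in these cells at this depth, and the cells are called Mast Ba2 cells below, after their label.

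The promoters of 5 genes are shown because they hold a motif searched for. They were picked from the 15 genes with the largest ratio of their Mast Ba2 level to the next highest type, among those whose window held it, so they are no sample of those 15. Each is the 250 bases before the RefSeq start in GRCm38.p6, written 5′ to 3′ on the strand of the gene, with the letters AGATAA, or their reverse complement TTATCT, in capitals. These letters are a short form of the motif read by the GATA factors, of which Gata2 is required for basophils and mast cells.
Cpa3: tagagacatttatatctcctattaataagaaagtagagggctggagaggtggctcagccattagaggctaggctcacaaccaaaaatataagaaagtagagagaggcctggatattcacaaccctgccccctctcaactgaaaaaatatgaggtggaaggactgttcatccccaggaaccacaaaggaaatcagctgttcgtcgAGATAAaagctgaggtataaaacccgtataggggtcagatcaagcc
Ms4a2: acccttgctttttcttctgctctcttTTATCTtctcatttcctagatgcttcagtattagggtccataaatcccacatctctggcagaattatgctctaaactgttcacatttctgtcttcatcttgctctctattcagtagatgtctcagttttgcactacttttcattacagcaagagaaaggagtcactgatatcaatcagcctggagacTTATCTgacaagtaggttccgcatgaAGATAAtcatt
Fcer1a: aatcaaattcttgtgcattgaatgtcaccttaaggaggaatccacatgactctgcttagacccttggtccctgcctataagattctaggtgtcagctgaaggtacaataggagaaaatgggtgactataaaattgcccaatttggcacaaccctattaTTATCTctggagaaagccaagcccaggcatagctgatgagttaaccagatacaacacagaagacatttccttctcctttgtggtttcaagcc
Prss34: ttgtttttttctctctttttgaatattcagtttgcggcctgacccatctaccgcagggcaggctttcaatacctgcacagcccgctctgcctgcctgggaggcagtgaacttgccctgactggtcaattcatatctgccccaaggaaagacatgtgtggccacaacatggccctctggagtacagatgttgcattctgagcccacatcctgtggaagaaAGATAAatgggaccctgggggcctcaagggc
Cd200r3: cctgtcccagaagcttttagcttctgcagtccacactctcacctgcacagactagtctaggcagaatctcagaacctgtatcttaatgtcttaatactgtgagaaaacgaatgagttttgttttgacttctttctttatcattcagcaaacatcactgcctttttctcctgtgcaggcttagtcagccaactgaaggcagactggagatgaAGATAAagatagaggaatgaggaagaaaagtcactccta
The Cpa3 window lies on the minus strand at chr3:20242182-20242431, that of Ms4a2 on the minus strand at chr19:11623720-11623969 and that of Fcer1a on the minus strand at chr1:173227230-173227479. The Prss34 window lies on the plus strand at chr17:25298144-25298393 and that of Cd200r3 on the plus strand at chr16:44943428-44943677. Ms4a2 held 3 matches, the nearest 11 bases before the start, and the other 4 promoters held 1 match each, between 31 and 92 bases before it. Of these 15 genes, 12 had a window in the table, and 8 of these held AGATAA on either strand. Of all 27025 genes with a window, 11.4% did (9.99% of 32851 windows of the same length). The other matches lay before Dnase2b, Grm6 and Slc18a2. The windows of Mcpt8, Cyp11a1, Ctsg and Il6 held none, and Defb40, Alox15 and Ccl4 had no window. The related letters TGATAA were found in 3 of the 12 (9.21% of all genes) and the RUNX letters TGTGGT in 4 (15.9%). The ETS letters GGAAGT were found in 1 (22.2%), the AP-1 letters TGACTCA in 1 (5.16%) and the CEBP letters TTGCGCAA in 0 (0.185%). Each was searched on both strands. A match says only that these letters are in the window.

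Across the 34 types, 2333 genes reached 50 CPM in the Mast Ba2 cells, 250 of them were highest there, and 18 exceeded the next type by 10 times or more. The 15 with the largest ratio grouped by role as follows. Granule proteases led the list, with Mcpt8 at 4210 times the next type, the tryptase-like Prss34 at 968 times and cathepsin G (Ctsg) at 82.6 times. Receptors followed, with Ms4a2 at 617 times, Fcer1a at 604 times and Cd200r3, an activating receptor of the CD200 receptor family used to gate basophils, at 150 times with a UMI in 88.1% of cells. The glutamate receptor gene Grm6 stood at 68.8 times. Among enzymes, Dnase2b stood at 474 times, Alox15, a lipoxygenase, at 70.4 times and Cyp11a1, which makes pregnenolone from cholesterol, at 139 times with 1699 CPM in 97.8% of cells. The remaining members were the defensin gene Defb40 at 156 times, Ccl4 at 39.6 times, Il6 at 36.5 times, Slc18a2 at 30.7 times and Cpa3 at 30.1 times. The ratios of Mcpt8, Ms4a2 and Fcer1a rest on a next type with hardly any counts. These levels were 0.7962 CPM in Neut 2, 0.8175 CPM in ILC2 and 0.3224 CPM in CD8 T cell 1 cells. Each was the lowest nonzero level of that type among the genes plotted by type, so the size and order of these ratios are imprecise.

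**Figure D1:**
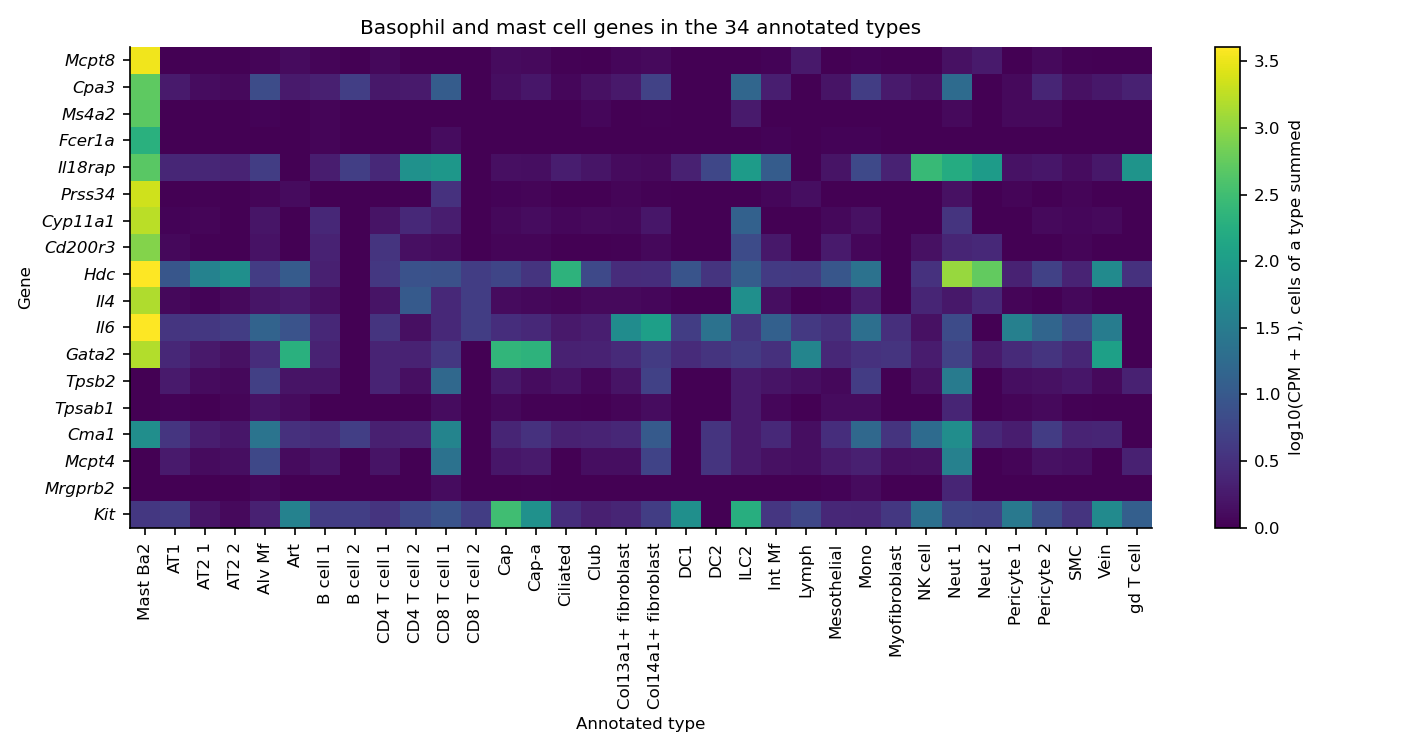
Levels of 18 genes (rows) in each of the 34 annotated cell types (columns, Mast Ba2 first), as the colour of log10(CPM + 1) over all summed cells of a type, brighter for higher levels. Mcpt8, Ms4a2 and Fcer1a are bright in the first column and near 0 elsewhere, whereas Il18rap is also seen in NK cells at 269.3 CPM.

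The level of Mcpt8 across types was followed most closely by genes of the same group. Over the 34 types, Pearson's r with Mcpt8 was 0.994 for Dnase2b, 0.992 for Defb40, 0.991 for Fcer1a, 0.987 for Ms4a2, 0.983 for Prss34, 0.965 for Grm6 and 0.954 for Ctsg. Each value rests mainly on 1 type, the Mast Ba2 cells, and types share mice and libraries, so no p is given.

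Hdc, the enzyme that makes histamine, reached 4040 CPM with a UMI in 100% of the cells, against 1129 CPM in Neut 1 cells. Serglycin (Srgn), the core protein of the granule matrix, reached 8576 CPM and lay just below Neut 1 cells at 8876 CPM. Granzyme B (Gzmb) was found in 20.0% of cells at 511.4 CPM, but 1 cell of P7 hyperoxia mouse 3 held 179 of its 357 UMIs, and the level was 259.3 CPM without that cell. Of the 23 measured granule genes, 17 were detected in at least 10% of cells.

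The IgE receptor gamma chain Fcer1g, which many myeloid cells share, reached 1802 CPM in 97.3% of cells and ranked sixth, behind monocytes at 3686 CPM. The kinases Lyn and Syk, which carry the signal of the receptor, were lower, at 70.2 and 45.84 CPM. All 25 genes of the receptor and its signalling had a UMI, 21 of them in at least 10% of cells. The immunoglobulin-like receptor Lilr4b stood at 1764 CPM in 98.9% of cells, 3.18 times the next type.

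Receptors for the cytokines that maintain basophils were led by the shared beta chain Csf2rb with 832.4 CPM in 85.4% of cells and its mouse-specific relative Csf2rb2 with 286.5 CPM, both highest of the 34 types. Il3ra, the chain specific for interleukin 3, reached 154.7 CPM. Il1rl1, the receptor of interleukin 33, reached 246.4 CPM in 46.5% of cells and was exceeded by ILC2 cells at 450.5 CPM. Crlf2, the receptor of Tslp, stood at 223.5 CPM against 223.4 CPM in Neut 1 cells. Il5ra, Csf3r, Tlr4 and Tlr5 had no UMI. The matching ligands were found in other cells of the same lungs. Il33 was highest in AT2 2 cells (201.1 CPM), Tslp in Pericyte 2 cells (122.0 CPM), Csf2 in ILC2 cells (1701 CPM) and Il18 in alveolar macrophages (417.7 CPM). Il3 did not exceed 4.088 CPM in any type.

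Cytokines and chemokines took a large part of the transcriptome. The 18 chemokine genes of the list summed to 66890 CPM, the highest of the 34 types. Ccl4 reached 31900 CPM and Ccl3 19630 CPM, both chemokines that recruit leukocytes. Ccl9 reached 2623 CPM and was also highest here. Ccl6 (3368 CPM) was second to alveolar macrophages (9452 CPM), and the neutrophil attractant Cxcl2 (9199 CPM) was second to Neut 1 cells (16350 CPM). Of the type 2 cytokines, Il4 reached 1486 CPM in 70.3% of cells against 62.13 CPM in ILC2 cells, and Il13 reached 916.9 CPM against 465.2 CPM in ILC2 cells. Il5 and Il10 had no UMI. Il6 (3953 CPM), oncostatin M (Osm, 2168 CPM), macrophage growth factor Csf1 (862.4 CPM) and hepatocyte growth factor Hgf (371.0 CPM) were each highest of the 34 types. Lipid mediator genes were uneven. Alox5ap, needed for leukotriene synthesis, reached 3228 CPM and Ptgs2, the inducible cyclooxygenase, 1117 CPM, while Ltc4s and Hpgds, which make leukotriene C4 and prostaglandin D2, had 1 and 2 UMIs.

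Among transcription factors, Gata2 reached 1572 CPM in 89.2% of cells, 6.65 times the next type, capillary endothelium. Runx1 reached 580.2 CPM and was also highest of the types. Cebpb reached 3033 CPM and Cebpa 126.1 CPM, each behind 2 other types. The 37 immediate early genes of the list, which are switched on within minutes of a stimulus and also by tissue digestion, summed to 42210 CPM, again the highest of the 34 types. Ifitm1, an interferon-inducible membrane protein, reached 15550 CPM with a UMI in 100% of cells, 8.34 times the next type.

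Not all Mast Ba2 cells were alike. Prss34 gave 1524 UMIs, of which 1457 (95.6%) lay in 24 cells with 10 or more UMIs each, while 138 cells had none. The 24 cells came from 17 mice and all 6 groups, with 5, 4, 6, 5, 1 and 3 cells in P3 normoxia, P3 hyperoxia, P7 normoxia, P7 hyperoxia, P14 normoxia and P14 hyperoxia. One cell held 236 UMIs of the gene. In the summed 24 cells Mcpt8 was at 10640 CPM, against 1449 CPM in the 138 cells without Prss34. Ctsg was 6.63 times higher in the former. Of the 30 cell cycle genes in the list, 28 had a UMI in one of these sets of cells, and 27 of the 28 were higher in the 24 cells, against 5524 of 11622 genes in all (47.5%). Among them were Stmn1 at 480.0 against 24.55 CPM, Hmgb2 at 2433 against 421.5 CPM and Mki67 with 32 UMIs in 7 of 24 cells against 4 UMIs in 4 of 138. Il4 was lower, at 513.1 against 1733 CPM, as was Ccl6, at 1672 against 3576 CPM. Cells with a UMI of Il4 were no rarer, at 18 of the 24 and 96 of the 138. Cd200r3 (1101 against 802 CPM) and Cpa3 (777.9 against 464.4 CPM) differed less. Median depth was 4648 UMIs in the 24 cells and 3469 in the 138, and its part in these differences was not tested. The cells were split by a measured gene, so these values are a description with no test.

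**Figure D2:**
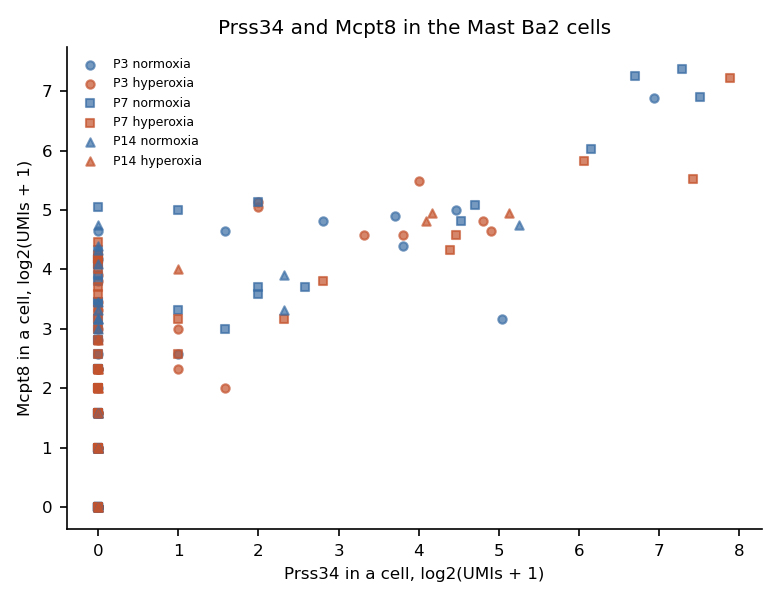
Prss34 against Mcpt8 in each of the 185 Mast Ba2 cells, both as log2(UMIs + 1), with colour for oxygen and shape for age. The 138 cells without Prss34 stand at 0 on the horizontal axis, and the cells with most Prss34, up to 236 UMIs, are also high in Mcpt8.

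The share of Mast Ba2 cells among all cells of a mouse was compared between oxygen levels and between ages. At P3 the share ran from 0.1961 to 0.3493% in the 6 normoxic mice (median 0.2579%) and from 0.04798 to 0.4414% in the 6 hyperoxic mice (median 0.2738%). At P7 it ran from 0.07716 to 1.218% in normoxia (median 0.5111%) and from 0 to 0.7768% in hyperoxia (median 0.2991%). The 0 at P7 was P7 hyperoxia mouse 5, which had only 125 cells of any type, the fewest of all mice. At P14 the share ran from 0.09704 to 0.3362% (median 0.1304%) and from 0 to 0.361% (median 0.08129%). The groups overlapped at every age, and the widest spread was that of the normoxic P7 mice, from 1 to 17 cells.

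Hyperoxia changed no share past the threshold of an adjusted p of 0.05. The means at P3 were 0.266% ± 0.136 in hyperoxia and 0.267% ± 0.0535 in normoxia (SD, n = 6 mice each, adjusted p = 0.989, exact two-sided permutation test, Benjamini-Hochberg over 34 types and 3 ages). At P7 they were 0.341% ± 0.307 and 0.588% ± 0.390 (SD, n = 6, exact permutation, adjusted p = 0.483), and at P14 0.143% ± 0.163 and 0.182% ± 0.107 (SD, n = 6, exact permutation, adjusted p = 0.818). As a share of the myeloid cells the P14 means were further apart, at 0.596% ± 0.619 in hyperoxia and 1.325% ± 0.813 in normoxia (SD, n = 6, exact permutation, p = 0.117, adjusted p = 0.312). By the same rule 0.0%, 8.82% and 32.4% of the 34 types differed at P3, P7 and P14. Within pools, the P7 means were 0.8088% in normoxia and 0.3833% in hyperoxia in the P7 pool, and 0.3665% and 0.2984% in the pool of P3 and P7 mice. The hyperoxic mean of the P7 pool includes the mouse with 125 cells and no Mast Ba2 cell. Without that mouse the P7 hyperoxia mean over both pools was 0.409% ± 0.288 (SD, n = 5 against 6, exact permutation, adjusted p = 0.709). At P3 the pools went opposite ways, with 0.2733% against 0.1612% in the P3 pool and 0.2609% against 0.3705% in the mixed pool. No difference in the effect of oxygen between ages was detected (permutation p = 0.270 for P7 against P3, 0.367 for P14 against P7 and 0.702 for P14 against P3).

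In normoxia the mean share was 0.321 percentage points higher at P7 than at P3 (exact permutation, n = 6, p = 0.0606, adjusted p = 0.172) and 0.406 percentage points lower at P14 than at P7 (exact permutation, n = 6, p = 0.0217, adjusted p = 0.0789). Neither passed the adjusted threshold, which 11.8% and 8.82% of the types passed, nor did P14 against P3 (adjusted p = 0.225, exact permutation, where 38.2% of types passed). Numbers of cells were also tested with edgeR, scaled to all cells of each mouse, which is a second test of the share. There the P14 value was 1.64 lower than P7 on the log2 scale and passed (edgeR, adjusted p = 0.0178). The P7 side of these comparisons includes the P7 pool, whose normoxic mean was 0.8088%. In the pool that held both P3 and P7 mice, the normoxic means were 0.2609% at P3 and 0.3665% at P7. The part of the pool in the differences between ages was not tested. In hyperoxia the adjusted p of the exact permutation tests were 0.725, 0.487 and 0.482 for P7 against P3, P14 against P7 and P14 against P3, where 8.82%, 0.0% and 20.6% of types passed.

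**Figure D3:**
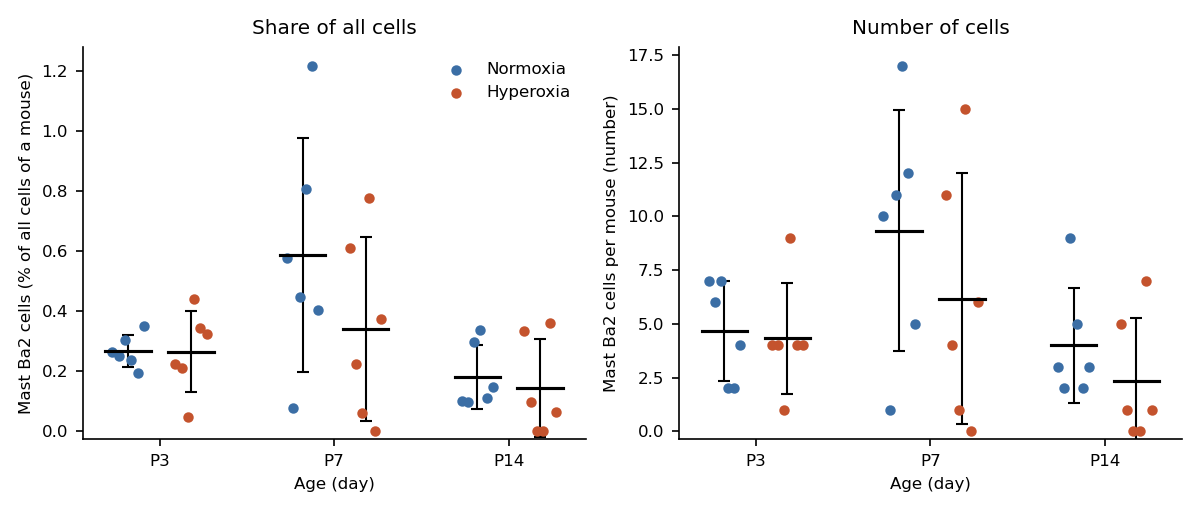
Mast Ba2 cells of each mouse by age, as percent of all its cells (left) and as their number (right), with normoxia in blue, hyperoxia in orange and bars for mean ± SD over 6 mice. The normoxic P7 mice spread from 0.07716 to 1.218%, and the oxygen groups overlap at every age.

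Changes of expression were tested on UMIs summed per mouse, in 13 normoxic and 11 hyperoxic mice with 7787 to 70561 UMIs of these cells each. In bulk sums of this kind a change in the mix of cells and a change in RNA per cell cannot be told apart. Hyperoxia against normoxia over all ages gave 0 calls among 354 genes (0.0% called, edgeR quasi-likelihood test, adjusted p under 0.05), with 15 genes at an unadjusted p under 0.05 and 1 call by DESeq2. At single ages 505 genes were tested and 0 were called at P3, P7 and P14 (0.0% each), with 39, 14 and 18 genes at an unadjusted p under 0.05 and 0 calls by DESeq2.

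For the 5 listed markers no difference between oxygen levels was detected, within wide limits. Mcpt8 was, in P3 normoxia, 7759, 4181, 2250 and 1489 CPM in the 4 mice, and in P3 hyperoxia 5149, 8290, 3291, 1884 and 2046 CPM in the 5 mice. In P7 normoxia it was 6427, 4810, 3274, 2848 and 1066 CPM, and in P7 hyperoxia 1666, 2908, 2409 and 5698 CPM. In P14 normoxia it was 4673, 3363, 810 and 1926 CPM, and in P14 hyperoxia 3554 and 2617 CPM. The groups overlapped at each age, and mice of 1 group differed by several times. The log2 change under hyperoxia over all ages was -0.09 ± 0.33 (SE) for Mcpt8, 0.36 ± 0.38 for Cpa3, -0.02 ± 0.26 for Ms4a2 and 0.06 for Il18rap (edgeR, adjusted p = 0.99 each). Fcer1a was too low for this test. At P3, P7 and P14 its log2 change was 0.74, -0.59 and 1.18 (edgeR, adjusted p = 0.771, 0.997 and 0.953). At P14 it ran from 73.63 to 258.7 CPM in the 4 normoxic mice and was 300.3 and 458.5 CPM in the 2 hyperoxic mice. These did not overlap, and the share of all genes for which this is so was not counted. The normoxic mice at 73.63, 126.3 and 128.4 CPM had 13581, 7918 and 7787 UMIs of all genes. Their values thus rest on hardly any UMIs of Fcer1a.

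The lowest adjusted p over all ages was that of Il1b, the proinflammatory cytokine interleukin 1 beta. In P3 normoxia the 4 mice had 392.3, 1394, 875 and 1608 CPM, and in P3 hyperoxia the 5 mice had 0, 0, 512.5, 454.8 and 62.01 CPM. In P7 normoxia the values were 2375, 1998, 737, 1300 and 577.2 CPM, and in P7 hyperoxia 610, 0, 528.8 and 26.26 CPM. In P14 normoxia they were 378.9, 517.3, 1473 and 0 CPM, and in P14 hyperoxia 114.6 and 300.3 CPM. Among these mice with at least 3 cells the highest value lay in normoxia at every age, and the oxygen groups overlapped at every age. The 9 mice left out for having 1 or 2 cells held high values at both oxygen levels. In hyperoxia they were 6715 CPM at P3 (12 UMIs in 1 cell), 0 CPM at P7, and 7950 CPM (23 UMIs in 1 cell) and 0 CPM at P14. In normoxia they were 5161 and 0 CPM at P3, 1933 CPM at P7 and 0 and 2018 CPM at P14. Summed over all cells, Il1b was at 1335 CPM in normoxia and 446.5 CPM in hyperoxia at P3, at 1391 and 353.9 CPM at P7 and at 729.7 and 709.1 CPM at P14. The log2 change over mice with at least 3 cells was -1.95 ± 0.45 (SE, edgeR, adjusted p = 0.0824), which did not pass. Over mice with at least 1 cell it was -1.26 (edgeR, adjusted p = 0.994). With pool and age as replicate block it was -2.07 and passed (edgeR, adjusted p = 0.0354), as it did by DESeq2 (adjusted p = 0.0184). On sums per pool, age and oxygen with the same replicate block it was -1.40 and did not pass (edgeR, adjusted p = 0.478), and over the 9 alternatives the adjusted p ran from 1.18e-07 to 0.999. Without P3 normoxia mouse 1 or P14 normoxia mouse 6 it also passed (adjusted p down to 0.0363). Il1b had a UMI in 25.9%, 32.3% and 34.2% of Mast Ba2 cells at P3, P7 and P14, against 4.29%, 3.51% and 3.32% of lymphoid cells. Its highest type was Neut 1 at 8183 CPM. Summed neutrophil markers in the Mast Ba2 cells ran over mice from 130.8 to 375 CPM in P3 normoxia and from 0 to 971 CPM in P3 hyperoxia, from 44.4 to 783.6 and from 70.39 to 228.1 CPM at P7, and from 147.8 to 441.8 and from 57.32 to 214.5 CPM at P14. Of these 10 markers Csf3r was at 0 and S100a8 and S100a9 at 28.65 and 34.38 CPM, and their part in the Il1b values was not tested.

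The other cytokines varied strongly between mice. Il4 ran from 348.4 to 2438 CPM in P3 normoxia and from 194.9 to 4536 CPM in P3 hyperoxia, from 657.1 to 2650 and from 551.4 to 2952 CPM at P7, and from 126.3 to 1031 CPM and from 687.8 to 3990 CPM at P14. Cxcl2 ran from 348.7 to 9650 CPM in P3 normoxia and from 7154 to 28910 CPM in P3 hyperoxia, and 1 normoxic P7 mouse had 177.6 CPM beside 7454 to 12980 CPM in the other 4. The groups overlapped for both genes at each age, and neither was called in the main fit. At P3 the overlap of Cxcl2 came from P3 normoxia mouse 6, in the pool of P3 and P7 mice. The normoxic mice of the P3 pool had 348.7, 836.2 and 3188 CPM. Over all ages the log2 change of Cxcl2 was 0.87 (edgeR, adjusted p = 0.99). It was called in 1 of 10 alternative settings, that with no filter on low counts (edgeR, adjusted p = 1.58e-07). Of the 29 measured cytokine and growth factor genes, 7 were tested over all ages, with a median log2 change of -0.09 and 1 above 0, against 0.01 and 182 of 354 for all genes tested.

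**Figure D4:**
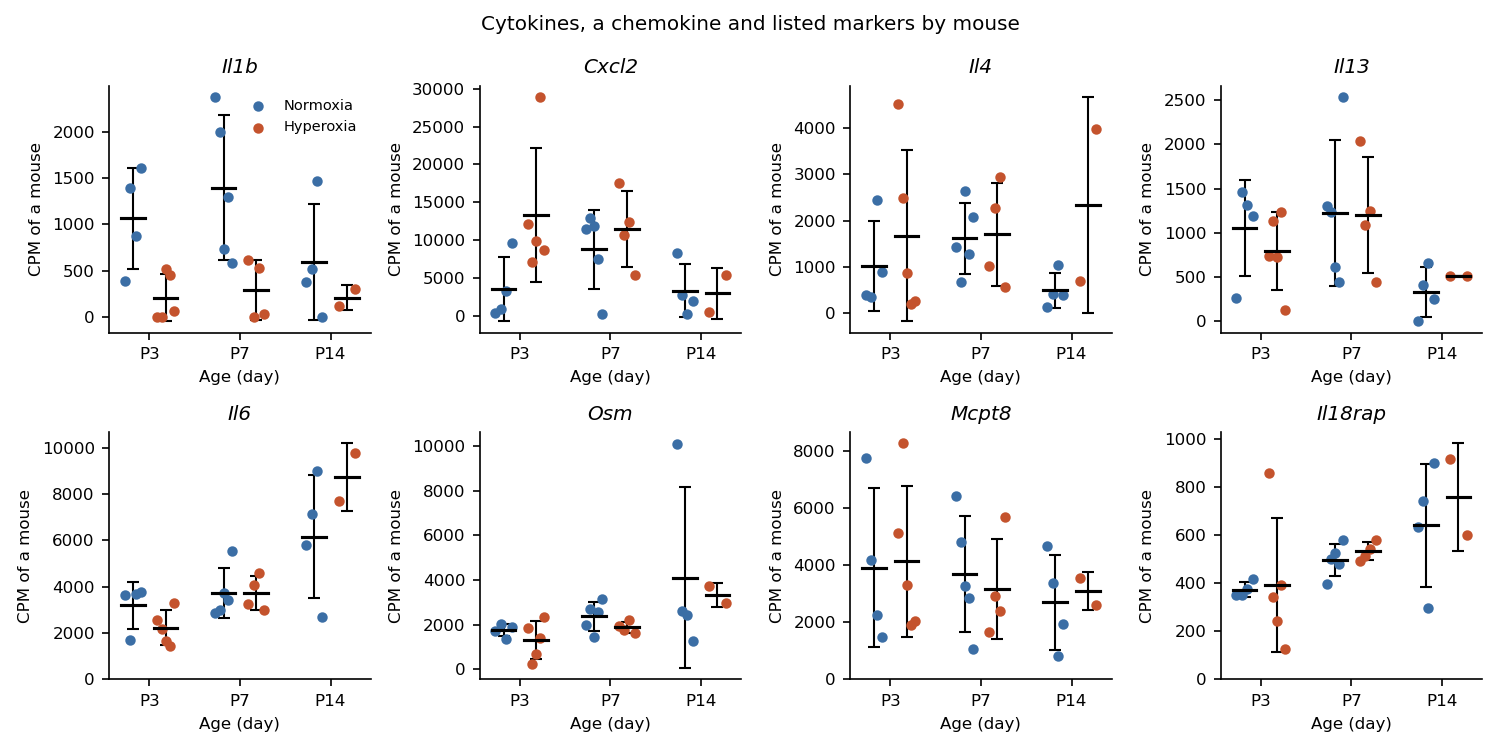
CPM in each mouse with at least 3 Mast Ba2 cells for 5 cytokines, the chemokine Cxcl2 and the markers Mcpt8 and Il18rap, by age, with normoxia in blue, hyperoxia in orange and bars for mean ± SD. Among the mice plotted, hyperoxic mice stay at or below 610 CPM of Il1b and 8 of 13 normoxic mice exceed that level. Of the 9 mice with fewer cells, not plotted, 2 hyperoxic mice had 6715 and 7950 CPM and 3 normoxic mice 1933 to 5161 CPM. In all 8 panels the oxygen levels overlap at every age.

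The remaining groups of genes showed no call under hyperoxia at any age. Of the antioxidant genes, 7 of 26 were tested over all ages with a median log2 change of 0.02. For the p53 targets it was 1 of 20 with 0.05, for the interferon genes 4 of 30 with 0.09, for glycolysis 3 of 19 with -0.12 and for the immediate early genes 21 of 37 with -0.07. Granule genes gave 8 tested of 23 and a median of 0.06. Among 13 genes associated with BPD, 5 had no UMI in the Mast Ba2 cells and only Il18rap was tested. The test of a different oxygen effect between ages gave 0 calls of 505 genes for each pair of ages (edgeR, lowest adjusted p = 0.541), with 31, 13 and 29 genes at an unadjusted p under 0.05. DESeq2 was not run for that test.

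Between ages in normoxia few genes were called. Between P3 and P14, 7 of 505 genes were called (1.39%), 5 of them higher at P14 (0.99%) and 2 lower (0.396%), and 94 had an unadjusted p under 0.05. The count of 7 became 13 by DESeq2, 16 over mice with at least 1 cell, and 1 to 11 when 1 mouse was left out. It was 1 without P14 normoxia mouse 4, 3 or 4 without P14 normoxia mouse 1, P14 hyperoxia mouse 1 or any 1 of the 4 P3 normoxia mice, and 11 without P14 normoxia mouse 6. Between P3 and P7, 1 gene was called (0.198%), and between P7 and P14, 0 genes (0.0%, lowest adjusted p = 0.0662, 55 genes at an unadjusted p under 0.05, 1 call by DESeq2). The P3 values rest on 4 mice and the P14 values on 4 mice, in different pools.

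Among the genes higher at P14, Tnfaip3, which ends NF-kB signalling, was 1744, 1045, 812.5 and 833.9 CPM in the 4 mice of P3 normoxia and 4673, 4139, 4418 and 2055 CPM in the 4 mice of P14 normoxia. The groups did not overlap, as was so for 8.71% of all 505 genes, and the P7 mice lay between 1490 and 2943 CPM. The log2 change from P3 to P14 was 1.77 ± 0.33 (SE, edgeR, adjusted p = 0.00796), and it passed in all 24 fits that left out 1 mouse. Egr1, an immediate early transcription factor, was 566.6, 836.2, 125 and 297.8 CPM at P3 and 3663, 1626, 3461 and 770.5 CPM at P14. The lowest P14 mouse lay below the highest P3 mouse. Its log2 change was 2.37 (edgeR, adjusted p = 0.0292, passing in 18 of 24 fits). Plk3, a stress-responsive kinase, was 217.9, 209.1, 62.5 and 357.4 CPM at P3 and 505.2, 1035, 1178 and 385.3 CPM at P14, with no overlap. The lowest P14 mouse, at 385.3 CPM, had 7787 UMIs of all genes, and the highest P3 mouse, at 357.4 CPM, had 16788. Both values thus rest on few UMIs of Plk3, and so does the absence of overlap. The log2 change of Plk3 was 1.97 (edgeR, adjusted p = 0.0221, passing in 19 of 24 fits).

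Neat1, a long noncoding RNA that builds nuclear paraspeckles, rose between P3 and both later ages. It was 2790, 2300, 2062 and 1906 CPM at P3, 6078, 4915, 4620, 5141 and 5417 CPM at P7 and 4041, 4508, 5375 and 5008 CPM at P14. All P7 and P14 mice exceeded all P3 mice, and P3 and P7 did not overlap for 4.95% of all genes tested. The log2 change was 1.15 ± 0.22 (SE) from P3 to P7 (edgeR, adjusted p = 0.0115, passing in 22 of 24 fits) and 1.05 from P3 to P14 (edgeR, adjusted p = 0.0221, passing in 19 of 24). P3 and P7 mice shared 1 pool, and with pool as replicate block the change to P7 was 1.44 (edgeR, adjusted p = 0.0364). Of the normoxic mice tested, that pool held only P3 normoxia mouse 6 and P7 normoxia mice 1 and 3. The comparison of ages within a pool thus rests on few normoxic mice. The mice whose removal ended the P7 call were P3 normoxia mouse 3 and mouse 6, with an adjusted p of up to 0.121. Ccl6, a chemokine of macrophages and granulocytes, was 523.1, 2091, 2312 and 1966 CPM at P3 and 6062, 3067, 2945 and 7191 CPM at P14, with no overlap. Its log2 change was 1.46 (edgeR, adjusted p = 0.0308, passing in 17 of 24 fits). Of 5 alternative settings, the call held in 1, DESeq2, and the adjusted p of the others reached 0.362, with a log2 change down to 0.91.

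Lower at P14 were Ifitm1 and Plin2. Ifitm1 was 11380, 19510, 14810 and 18530 CPM at P3 and 9598, 10090, 9940 and 8476 CPM at P14. Every P14 mouse lay below every P3 mouse, and the P7 mice, at 14220 to 20420 CPM, also lay above all P14 mice. The log2 change was -0.74 (edgeR, adjusted p = 0.0292, passing in 17 of 24 fits). Plin2, which coats lipid droplets, was 697.4, 557.5, 500 and 178.7 CPM at P3 and 126.3, 0, 0 and 128.4 CPM at P14, with no overlap. The log2 change was -3.57 (edgeR, adjusted p = 0.0221, passing in 21 of 24 fits), a size that is no bound, since 2 P14 mice were at 0. The P14 mice at 126.3 and 128.4 CPM had 7918 and 7787 UMIs of all genes, so these values rest on hardly any UMIs of Plin2. A UMI of Plin2 was found in 64.8%, 62.4% and 21.1% of Mast Ba2 cells at P3, P7 and P14 and in 17.3%, 14.1% and 7.28% of lymphoid cells. Ccl6 was found in 81.5%, 90.3% and 92.1% against 10.0%, 11.7% and 7.12%. The part of free RNA in the Plin2 change was not tested.

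The calls of single genes between P3 and P14 depended on the setting and on few mice. Under the alternative settings Tnfaip3 was called in 5 of 5, Plin2 in 3 of 3 that gave it an adjusted p, Egr1 in 4 of 5 (adjusted p up to 0.121, edgeR) and Plk3, Ifitm1 and Neat1 in 3 of 5 each (adjusted p up to 0.27, 0.268 and 0.691, edgeR). Adjusted p without 1 mouse reached 0.116 for Egr1, 0.114 for Ifitm1, 0.0980 for Plk3 and for Neat1, 0.0909 for Ccl6 and 0.0834 for Plin2. For Egr1 the call was lost without P3 normoxia mouse 1, 3 or 6, P14 normoxia mouse 1 or 4 or P14 hyperoxia mouse 1. For Ifitm1 it was lost without P3 normoxia mouse 2, 3 or 6 or P14 normoxia mouse 1, 3, 4 or 6. For Plk3 it was lost without P3 normoxia mouse 1, 2 or 3 or P14 normoxia mouse 3 or 4, and for Neat1 without P3 normoxia mouse 2, 3 or 6, P14 normoxia mouse 4 or P14 hyperoxia mouse 1. For Ccl6 it was lost without P3 normoxia mouse 1, 2 or 6, P14 normoxia mouse 1, 4 or 6 or P14 hyperoxia mouse 1, and for Plin2 without P3 normoxia mouse 1 or P14 normoxia mouse 3 or 4.

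**Figure D5:**
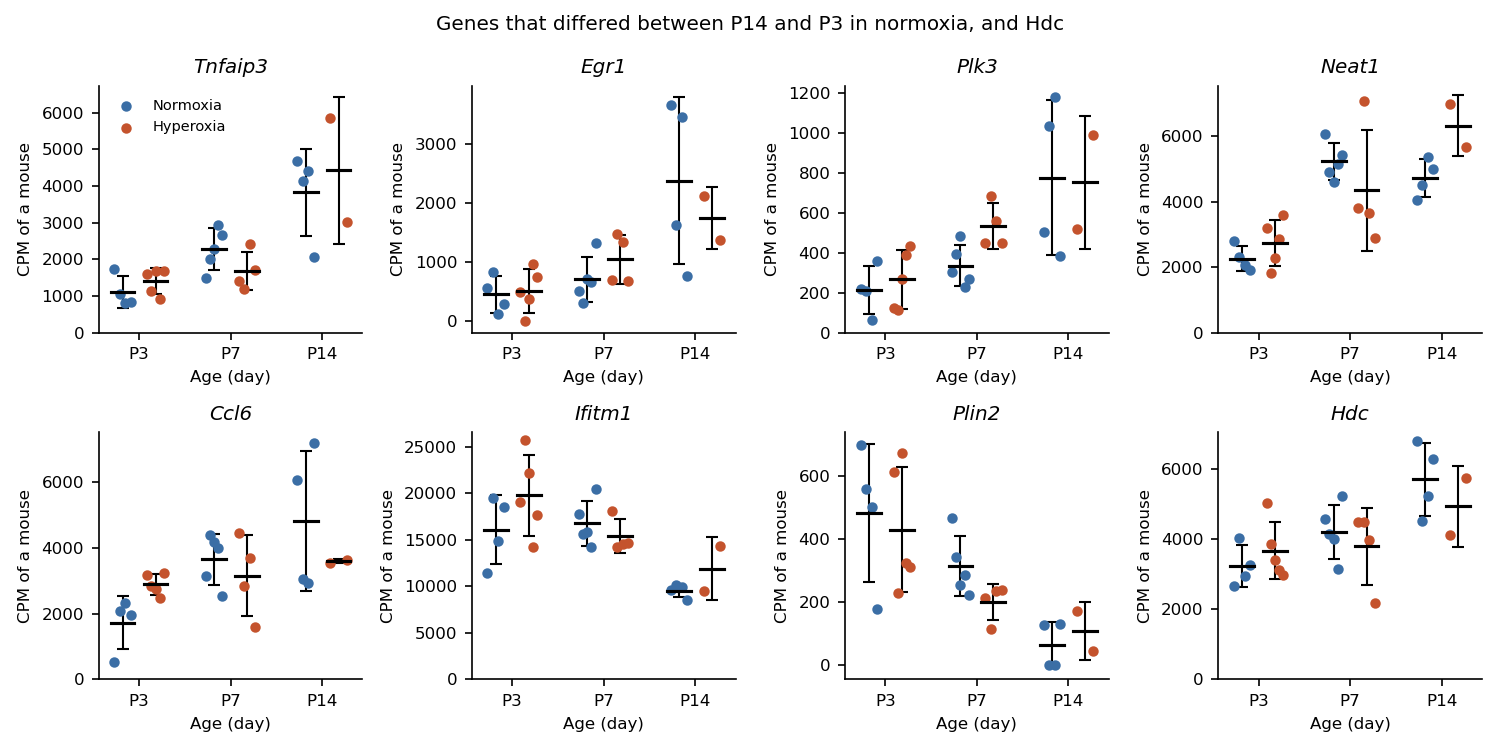
CPM in each mouse with at least 3 Mast Ba2 cells for the 7 genes called between P3 and P14 in normoxia and for Hdc, by age, with normoxia in blue, hyperoxia in orange and bars for mean ± SD. Tnfaip3, Plk3, Neat1 and Ccl6 do not overlap between P3 and P14 normoxia, nor do Ifitm1 and Plin2, whereas Egr1 does.

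The same ages in hyperoxia were not compared by a test of genes. Tnfaip3 was 1594, 1136, 1672, 909.6 and 1674 CPM in P3 hyperoxia and 5846 and 3003 CPM in P14 hyperoxia. Neat1 was 3187, 1817, 2266, 2859 and 3596 CPM against 6993 and 5663 CPM. Plin2 was 613, 227.1, 674.3, 324.8 and 310 CPM against 171.9 and 42.9 CPM. For these genes, and for Egr1, Plk3 and Ccl6, the 5 P3 mice and the 2 P14 mice did not overlap in hyperoxia, while for Ifitm1 they did (14230 to 25660 CPM against 9457 and 14290 CPM). With so few mice, 17.4% of all 505 genes did not overlap in this way. The genes were chosen by their difference in normoxia, and their values in hyperoxia are a description.

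Of the 37 immediate early genes, 26 were tested between P3 and P14. All 26 were higher at P14 than at P3 in normoxia, with a median log2 change of 0.90, and 2 were called, Tnfaip3 and Egr1, while 248 of all 505 tested genes were higher, with a median of -0.02. The members share the mice and the pools. By DESeq2 25 of 26 were higher, and with no filter on low counts 27 of 37 were, with a median of 0.56. Against P7, 23 of 26 were higher at P14 with a median of 0.40 and 0 called, and with no filter on low counts 15 of 37 were, with a median of -0.28, where the median of all 11617 genes was -0.44 and 25.9% were higher. Summed over the list, the level was 30740 to 39010 CPM in P3 normoxia, 34990 to 44940 CPM in P7 normoxia and 30440 to 75270 CPM in P14 normoxia, so that the lowest P14 mouse lay below all P3 mice.

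Of the other groups, chemokines gave 1 call among 5 tested (Ccl6) and interferon genes 1 among 4 (Ifitm1, lower at P14), and the rest gave 0, where 0.99% of all genes tested were called higher and 0.396% lower. Hdc was 2659, 4042, 2938 and 3276 CPM at P3 and 6820, 4508, 5228 and 6293 CPM at P14. The groups did not overlap, and the log2 change of 0.81 missed the threshold (edgeR, adjusted p = 0.0702). Hdc passed in 2 of 5 alternative settings, DESeq2 and mice with at least 1 cell, and in 2 of 24 fits that left out 1 mouse. Lilr4b, at 1133, 1324, 687.5 and 1727 CPM against 3536, 2513, 2135 and 1669 CPM, had a log2 change of 1.03. It lay at the threshold and was not called (edgeR, adjusted p = 0.05 when rounded). Its groups overlapped. Il6 was 3618, 1672, 3688 and 3753 CPM at P3 and 5810, 7132, 8983 and 2697 CPM at P14 (log2 change 0.98, edgeR, adjusted p = 0.109). Its groups overlapped through 1 P14 mouse.

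None of the 11 tested basophil markers was called between any pair of ages, and the median log2 change from P3 to P14 was 0.60. Their summed level was 10360 to 22060 CPM in the mice of P3 normoxia and 15170 to 19830 CPM in those of P14 normoxia, and the ranges overlapped. Markers of other blood cells differed in level. Summed T cell markers reached 25.79 CPM (Cd3e, Cd8a and Cd4 at 0), B cell markers 28.65 CPM (Ms4a1 at 0), dendritic cell markers 107.4 CPM (Xcr1, Clec9a and Flt3 at 0) and eosinophil markers 44.41 CPM (Prg2, Prg3 and Il5ra at 0). Monocyte markers summed to 2885 CPM, second to monocytes at 8720 CPM, of which Plac8 gave 2344 CPM and Ccr2 448.4 CPM, while Ly6c2 was at 1.433 CPM. ILC2 markers summed to 1862 CPM, rank 3 of the types, with ILC2 cells highest at 7128 CPM. A UMI of 3 or more of the 9 ILC2 markers was found in 47 Mast Ba2 cells, and of 3 or more of the 8 monocyte markers in 31. Macrophage markers summed to 625 to 2561 CPM in P3 normoxia and to 220.9 to 1156 CPM in P14 normoxia, with Marco and C1qb at 0 and Apoe giving 560.2 of their 709.1 CPM over all cells, and their part in the differences between ages was not tested. Red cell markers were 46.58 to 3001 CPM in P7 normoxia and 0 to 43.59 CPM in P3 normoxia, and Hbb-bs in lymphoid cells was likewise most frequent at P7. The P7 mice differed by pool. In normoxia Hbb-bs was 1304, 2446 and 310.8 CPM in the P7 pool and 23.29 and 52.57 CPM in the pool of P3 and P7 mice. In hyperoxia it was 352.5 and 498.9 CPM against 0 and 57.02 CPM. The high values thus lay in the P7 pool and not in all P7 mice.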

How the data were processed

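Per the labels, single-cell libraries of lungs from 36 mice were sequenced, and the submitters' processing notes name Cell Ranger 3.0.2 and mm10. The authors assigned cells to mice by their MULTI-seq barcodes, filtered and clustered them and deposited raw UMI counts of 22100 genes in 61839 cells with an annotation, which were used here as deposited, together with their percent of mitochondrial UMIs per cell. No further filter or doublet caller was applied. No column belonged to a sample outside the series.

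The mouse was the replicate, identified by pool and sample barcode, and the libraries of 1 pool of P3 and P7 mice held the same mice. Nothing in the labels ties mice to litters. Counts were summed per mouse with at least 3 Mast Ba2 cells and tested with edgeR 4.0.16 in R 4.3.3 (TMM, filterByExpr, quasi-likelihood test, Benjamini-Hochberg over all genes tested). A call needed an adjusted p under 0.05 and a UMI in at least 10% of cells in a group compared. Shares were tested by exact permutation of 924 splits (Python 3.11.15, scipy 1.17.1). Alternatives were DESeq2 1.42.0, other minimum cells, no low-count filter, thinning to 1000 UMIs and pools as replicate block. The edgeR step was tested on simulated data. Promoters came from RefSeq on GRCm38.p6.

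The cells, markers and gene lists were chosen with earlier results of these data known. Named were the 5 listed markers, the 15 genes with the largest ratio to the next type, leading or called members of each list, defining markers at 0 and up to 5 called genes in each direction. Srgn, Lyn, Syk, Hgf and genes compared between cells by Prss34 were chosen after their values were seen. Mice of both oxygen levels shared pools, per the labels, and the deviations of pool means from their group's mean correlated between oxygen levels over 505 genes at 0.211, 0.238 and 0.0904 for the 3 ages in order. The fit without the pool was the main one. UMIs per mouse in the gene tests had a median of 20030, which limits the test to abundant genes.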

Additional observations from a re-analysis of the deposited data

Results flagged for a closer look

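In tests of 71 groups of 4 to 6 mice for a single mouse far from the others, 2 were found, and chance alone gives about 1 in 20. Cpa3 was 1418 CPM in P7 hyperoxia mouse 6, while the other 3 mice of that group had 140.8, 342.1 and 352.5 CPM. Ifitm1 was 18070 CPM in P7 hyperoxia mouse 1, while the other 3 had 14200, 14570 and 14680 CPM. Neither gene was called between oxygen levels at P7.

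Cells with mast cell genes were found outside the Mast Ba2 cells. A UMI of at least 3 of the 6 mast cell genes was present in 11 cells that the annotation assigns to other types, from 8 mice, and in 0 Mast Ba2 cells. They were annotated as Alv Mf (3 cells), Neut 1 (3), CD8 T cell 1, Col14a1+ fibroblast, Int Mf, Mono and SMC. They came from P3 hyperoxia (5 cells), P7 normoxia (3) and P7 hyperoxia (3) and held 3042 to 37180 UMIs each. All 11 had a UMI of Cpa3 and 8 one of Kit.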

How the results depend on the processing

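The number of mice with 3 or more cells (24) and a median of 20030 UMIs per mouse limit these results to abundant genes. Under hyperoxia over all ages, where 0 genes were called, 5 were called with no filter on low counts, 1 with pool and age as replicate block (Il1b, a call lost, with 0 calls, on sums per pool, age and oxygen with that replicate block), 1 by DESeq2 and 2 with a minimum of 20 UMIs in 6 mice, a setting added after seeing the data, as was pool as replicate block between ages. At P3 the counts were 2 with no filter and 1 with the 20 UMI minimum, at P7 7 and at P14 1 with no filter. From P3 to P7 (1 call) they were 17 with no filter, 0 with mice of at least 1 cell, 3 by DESeq2, 3 with pool as replicate block and 4 with the 20 UMI minimum. From P7 to P14 (0 calls) they were 28 with no filter, 2 with at least 5 cells, 1 with at least 1 cell, 1 by DESeq2 and 5 with the 20 UMI minimum. From P3 to P14 (7 calls) they were 11 with no filter, 16 with at least 1 cell, 13 by DESeq2, 5 with at least 5 cells and 5 with the 20 UMI minimum. The cause was not tested. No paired fit was made from P3 or P7 to P14, which share no pool.

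Leaving out 1 mouse gave 1 to 11 calls from P3 to P14, 0 to 9 from P7 to P14, 0 to 4 from P3 to P7, 0 to 1 under hyperoxia over all ages, 0 to 1 at P3 and 0 to 0 at P7 and P14. Where a named gene had an adjusted p under an alternative, 49 values stayed on the same side of the threshold, 12 lost the call and 7 gained it, all in the same direction. DESeq2 gave Plin2 no adjusted p.

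Of the shares, the P3 difference turned to 0.0248 percentage points higher in hyperoxia when 2 of the 5 markers were required (adjusted p = 0.878, exact permutation), and P14 against P3 in normoxia turned to 0.0445 percentage points higher as a share of myeloid cells (adjusted p = 0.926, exact permutation). Cell numbers scaled to all cells of each mouse fell by 1.64 on the log2 scale from P7 to P14 in normoxia and passed (edgeR, adjusted p = 0.0178). The other 36 alternatives for shares changed no call. With labels exchanged only within pools, as a replicate block, the adjusted p for oxygen were 0.98, 0.464 and 0.762.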

Other observations

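The Mast Ba2 cells with a UMI of 3 or more of 30 cell cycle genes numbered 107, from 30 mice, at a median of 4037 UMIs per cell. They were 15 of 28 cells in P3 normoxia, 14 of 26 in P3 hyperoxia, 32 of 56 in P7 normoxia, 25 of 37 in P7 hyperoxia, 15 of 24 in P14 normoxia and 6 of 14 in P14 hyperoxia. A UMI of Mki67 was found in 12 of the 185 cells and of Top2a in 9. Summed over the list, the cell cycle genes were at 3218 CPM, rank 22 of the 34 types, with the highest in CD8 T cell 2 cells at 18230 CPM. The same count of cells was not made in other types. A UMI of Prss34 was found in 28.6% and 38.5% of cells at P3, 23.2% and 24.3% at P7 and 12.5% and 28.6% at P14, in normoxia and hyperoxia.

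Kitl, the ligand of Kit, was highest in Cap-a cells of the capillaries at 1683 CPM, while Kit itself was 2.865 CPM in the Mast Ba2 cells. Il5 was highest in ILC2 cells at 245.3 CPM and at 0 in the Mast Ba2 cells. Csf2 was found in 8.11% of Mast Ba2 cells at 117.5 CPM, the second highest level of the 34 types.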
